A study of Mus musculus with 78 samples.

Results

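Hemoglobin genes and Alas2 were followed through 5 brain regions of 3 mouse lines, which were selected for anxiety-related behavior: a high line (HAB), a low line (LAB) and a line of normal behavior (NAB). All probes that the platform annotation assigned to Hbb-bs, Hbb-bt, Hbb-b1, Hbb-b2, Hba-a1 or Alas2 were taken, which gave 13 probes of 5 genes, out of 46643 probes and 19406 named genes on the array. Hbb-bs was covered by 9 probes, named here by the cDNA clone each was designed on (AK002258, AK003096, AK005442, AK010873, AK010993, AK011016, AK011053, AK011067 and AK011069). Hbb-bt (NM_008220), Hbb-b2 (NM_016956), Hba-a1 (NM_008218) and Alas2 (NM_009653) had 1 probe each, and Hbb-b1 had 0. The genes were chosen by measured values, since they were selected on the differences of HAB from the other lines in these arrays, so differences of HAB from another line are given as descriptions, with no p-value, for these and for other genes.

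The lines come from outbred CD-1 mice, and all animals were males, 10 weeks old, from breeding generation 25, with no treatment that separated the groups. RNA was taken by laser microdissection, 1 sample per mouse and region, from the paraventricular nucleus of the hypothalamus (PVN), the dentate gyrus (DG), the cingulate cortex (Cg), and the amygdala, divided into its basolateral (BLA) and central (CeA) nuclei, and was hybridized to Illumina MouseWG-6 bead arrays. Values were present for 75 arrays in 15 groups, with 25 arrays from 6 HAB mice, 26 from 7 NAB mice and 24 from 8 LAB mice as the labels number them, which is more mice than the study describes. Groups held 5 or 6 arrays, and 3 in the DG. All arrays of a region were hybridized together, so region and hybridization batch cannot be told apart.

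Hemoglobin is a tetramer of alpha and beta chains, each holding a heme. Reticulocytes and young red blood cells still carry globin mRNA, so blood left in the vessels can bring globin transcripts into a tissue sample, and neurons and glia have also been described to express globins at low levels. Alas2 encodes the erythroid form of the first enzyme of heme synthesis. Mouse strains carry different adult beta-globin haplotypes: the single haplotype (s) holds Hbb-bs and Hbb-bt, whereas the diffuse haplotype (d) holds Hbb-b1, the major gene, and Hbb-b2, the minor gene, at the same positions of chromosome 7. The copies are nearly identical in their coding sequence, as are Hba-a1 and Hba-a2 on chromosome 11, and Hba-a2 and Hbb-b1 had no probe of their own, so a probe may also take up the transcript of a related copy. Which genes a probe takes up was not tested, because probe sequences were not used here.

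The promoter sequences of the members are shown because alpha-globin, beta-globin and Alas2 moved together from array to array in the data below. RefSeq (GRCm38.p6) gave the 250 bases before the transcription start for 4 of the 6 genes, and capitals mark the short motif CACCC, the motif CCAAT and the motif GATAA, each searched as written on both strands:
Hbb-bs, chr7:103827929-103828178, minus strand: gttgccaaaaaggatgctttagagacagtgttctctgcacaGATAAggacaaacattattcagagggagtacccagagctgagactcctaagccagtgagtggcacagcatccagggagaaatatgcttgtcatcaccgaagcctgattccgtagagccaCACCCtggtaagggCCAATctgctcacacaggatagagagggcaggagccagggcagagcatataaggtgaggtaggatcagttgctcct
Hbb-bt, chr7:103813924-103814173, minus strand: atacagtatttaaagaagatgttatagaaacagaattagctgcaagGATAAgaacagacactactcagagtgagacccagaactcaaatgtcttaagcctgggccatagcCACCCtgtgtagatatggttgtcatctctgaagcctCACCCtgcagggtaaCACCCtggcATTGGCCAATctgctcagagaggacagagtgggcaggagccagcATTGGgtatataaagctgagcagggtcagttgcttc
Hba-a1, chr11:32283422-32283671, plus strand: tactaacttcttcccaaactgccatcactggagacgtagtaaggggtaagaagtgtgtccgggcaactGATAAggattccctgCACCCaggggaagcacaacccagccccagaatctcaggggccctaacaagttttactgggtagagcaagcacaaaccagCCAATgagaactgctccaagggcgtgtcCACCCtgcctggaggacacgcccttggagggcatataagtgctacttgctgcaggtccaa
Alas2, chrX:150547167-150547416, plus strand: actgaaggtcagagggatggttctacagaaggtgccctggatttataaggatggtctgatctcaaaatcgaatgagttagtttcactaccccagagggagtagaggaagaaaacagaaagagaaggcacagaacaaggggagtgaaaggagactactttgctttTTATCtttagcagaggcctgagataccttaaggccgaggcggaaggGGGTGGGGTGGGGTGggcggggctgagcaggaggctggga
CACCC boxes are bound by KLF1, the erythroid Krüppel-like factor, CCAAT boxes by NF-Y and related proteins, and GATA motifs by GATA1. Hbb-bs carried CACCC 90 and CCAAT 76 bases before its start, and Hbb-bt carried the same pair 89 and 75 bases before its start, with further copies of both. Hba-a1 had CCAAT 88 and CACCC 60 bases before the start. Alas2 had 3 adjoining CACCC matches on the opposite strand, the farthest 40 bases before the start, a GATAA match 86 bases before it and 0 matches to CCAAT. These letters are common: of 32536 promoters of this length, 52.1% held CACCC, 33.8% held CCAAT and 22.5% held GATAA, so each match is a description of the sequence only.

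Markers of the dissected regions were read. Oxt, which encodes oxytocin, reached a median intensity of 1600 in the PVN, against 6.23 to 7.07 in the other regions. A probe of Prox1, a granule cell factor, was highest in the DG. Another Prox1 probe and the listed marker Sim1 lay above background in 0 arrays of each region. Prkcd had a median of 101 in the CeA, against 12.3 to 25.3 elsewhere, but reached 53.7 in a BLA array. Slc17a7 ran from 7.5 to 162 in the CeA and from 406 to 588 in the BLA. No marker of the Cg alone was among them. Intensity is the authors' normalised value on a linear scale, and its log2 was used for every difference. The background level of an array was the intensity below which 95% of 1305 odorant or pheromone receptor probes fell, and ran from 6.99 to 10.6. All 13 globin and Alas2 probes passed the filter on dim values in the 5 regions. Of the 75 arrays, 10 of the 13 probes lay above background in all, AK005442 in 72, Hbb-b2 in 61 and Hbb-bt in 50. Hbb-bt passed mainly through HAB, where 23 of 25 arrays lay above background, against 16 of 26 in NAB and 11 of 24 in LAB, and Hbb-b2 through NAB and LAB.

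The probe for Hbb-bs clone AK011053 separated HAB mice from both other lines. In the Cg, it read 324, 303, 409, 265 and 289 in the HAB arrays, whereas the 6 NAB arrays ran from 17.2 to 163 with a median of 24.0 and the 6 LAB arrays from 20.9 to 29.5 with a median of 24.3. In the PVN, the 6 HAB arrays lay between 290 and 576 with a median of 421, the NAB arrays read 39.3, 54.4, 29.6, 32.9 and 31.8, and the LAB arrays 94.3, 32.3, 42.6, 68.4 and 25.1. Every HAB array was above every NAB and LAB array in both regions. The same held in the CeA (6 HAB arrays, 168 to 423, against 13.0 to 109 in 6 NAB and 134, 12.5, 21.2, 18.2 and 16.8 in LAB), and in the BLA (276, 350, 497, 302 and 341 in HAB, 25.2 to 182 in 6 NAB, and 31.3, 15.0, 24.1, 11.0 and 17.1 in LAB). In the DG, HAB arrays read 205, 158 and 307, NAB arrays 39.6, 27.7 and 98.4, and LAB arrays 28.9, 33.8 and 24.6. By region, the log2 difference between HAB and LAB ran from 2.9 (SE 0.44) in the DG to 4.23 (SE 0.41) in the BLA, and that between HAB and NAB from 2.17 (SE 0.44) in the DG to 3.52 (SE 0.28) in the PVN.

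A few NAB and LAB arrays lay between the groups at this probe. NAB mouse 15 read 182 in the BLA, 98.4 in the DG, 163 in the Cg and 109 in the CeA, the highest NAB value in each of the regions it gave. LAB mouse 03 read 134 in the CeA and 94.3 in the PVN, the highest LAB values there, 31.3 in the BLA, again the highest of LAB but close to the next at 24.1, and 21.4 in the Cg, near the bottom of its line. NAB mouse 13 reached 85.6 in the BLA, yet 32.9 in the PVN, 29.8 in the Cg and 23.7 in the CeA. Thus, NAB mouse 15 was intermediate in all 4 of its regions, whereas LAB mouse 03 and NAB mouse 13 stood away from their line in some regions and not in others. The labels of the 3 arrays that stood farthest from their group were checked at other genes whose line means differed by at least 2 log2 units in every region: the CeA array of LAB mouse 03 lay nearer to its own line at 17 of 17 such probes, and the Cg and CeA arrays of NAB mouse 15 at 12 of 12 each. Hbb-b2 in NAB mouse 15 read 34.2 in the DG and 16.5 in the Cg, the lowest NAB values there, and 20.3 in the BLA and 16.8 in the CeA, where only NAB mouse 02 was lower.

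**Figure D1:**
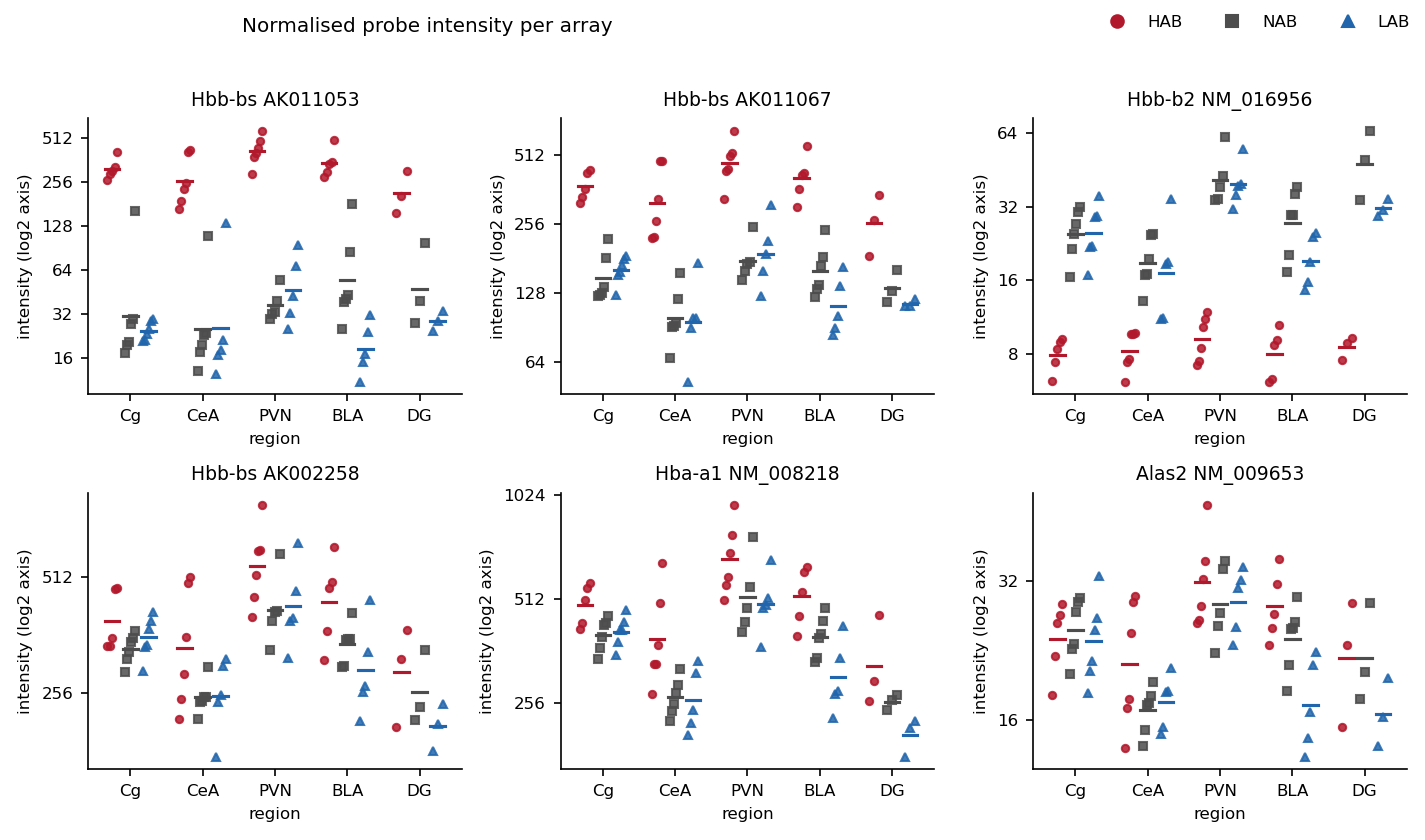
Normalised intensity (log2 axis) of 6 of the 13 probes in each of the 75 arrays, by region and line (HAB red circles, NAB grey squares, LAB blue triangles); bars are geometric means. AK011053 and AK011067 in HAB lie above every NAB and LAB array of the same region and Hbb-b2 below, whereas HAB overlaps with both lines in every region at AK002258, with NAB in every region at Hba-a1 and Alas2, and with LAB in all but the DG at Hba-a1 and all but the BLA at Alas2.

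Hbb-b2, the minor beta-globin gene of the diffuse haplotype, was the member that ran the other way. In the Cg, the HAB arrays read 7.47, 8.96, 6.22, 8.38 and 9.23, the 6 NAB arrays 16.5 to 32.0 with a median of 25.9, and the 6 LAB arrays 16.8 to 35.2 with a median of 25.5. In the PVN, the 6 HAB arrays ran from 7.21 to 11.9, while NAB arrays read 38.5, 61.7, 42.6, 34.0 and 34.3 and LAB arrays 55.2, 35.8, 39.0, 39.5 and 31.2. In the DG, the HAB values were 8.88, 7.58 and 9.36, against 49.4, 65.3 and 34.2 in NAB and 34.5, 30.9 and 29.2 in LAB. HAB was below both lines without overlap in all 5 regions, including the CeA (6.19 to 9.79 in HAB, from 11.1 in LAB and 13.2 in NAB) and the BLA (6.18 to 10.5 in HAB, from 14.6 in LAB and 17.3 in NAB). Only 11 of the 25 HAB arrays lay above background here, compared with all NAB and LAB arrays, so the HAB level is near the limit of detection. The log2 difference averaged over regions was -1.59 (SE 0.11) against LAB and -1.85 (SE 0.11) against NAB. With 16 added to each intensity before the log2, an offset that itself shrinks differences between dim values, they became -0.78 and -0.95.

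The 9 probes annotated to Hbb-bs did not change by a common amount. Next to AK011053, AK011067 differed most between HAB and the other lines: its 25 HAB arrays ran from 186 to 655 with a median of 366, against a median of 138 (66.8 to 249) in 26 NAB arrays and 132 (52.4 to 309) in 24 LAB arrays. Within each of the 5 regions, its HAB arrays lay above all NAB and LAB arrays, and the average log2 difference was 1.46 (SE 0.11) against LAB and 1.34 (SE 0.11) against NAB. AK011016 followed with 0.98 (SE 0.10) and 0.92 (SE 0.10), and HAB was above LAB without overlap in 3 regions and above NAB in 4. The other Hbb-bs probes had overlapping lines in most or all regions. AK011069 differed by 0.62, AK010873 by 0.52, AK010993 by 0.46, AK003096 by 0.43, AK002258 by 0.39 and AK005442 by 0.27 between HAB and LAB, with SE of 0.09 to 0.10 except AK005442 (0.17), and by 0.53, 0.46, 0.29, 0.34, 0.32 and 0.22 between HAB and NAB. Thus, probes that carry the same gene name ranged from 1.20-fold to 11.1-fold between HAB and LAB.

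The probe for Hbb-bt, which lies beside Hbb-bs in the single haplotype, was dim but higher in HAB. In the PVN, its 6 HAB arrays ran from 11.5 to 17.9, while NAB arrays read 11.2, 11.3, 9.64, 7.36 and 8.71 and LAB arrays 7.63, 7.29, 7.90, 9.48 and 8.63. In the DG, HAB arrays read 21.6, 16.5 and 17.7, NAB arrays 5.75, 13.0 and 16.2, and LAB arrays 9.12, 8.21 and 8.77. HAB lay above LAB without overlap in 4 regions, all but the BLA, and above NAB in the PVN and DG. In the CeA, the probe was above background in 0 of 5 LAB arrays, where HAB was at least 1.27-fold higher. Averaged over regions, the log2 difference was 0.64 (SE 0.08) against LAB and 0.50 (SE 0.08) against NAB, which 16 added before the log2 lowered to 0.26 and 0.20.

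Hba-a1, an adult alpha-globin gene on another chromosome, was moderately higher in HAB. In the BLA, HAB arrays read 400, 535, 634, 457 and 612, the 6 NAB arrays 336 to 482 with a median of 399, and LAB arrays 346, 272, 428, 277 and 231. In the DG, HAB arrays read 296, 259 and 460, NAB arrays 269, 260 and 244, and LAB arrays 217, 179 and 227. HAB and LAB overlapped in all regions but the DG, and HAB and NAB in all 5. The log2 difference averaged 0.54 (SE 0.08) against LAB and 0.39 (SE 0.08) against NAB, and lay between 0.26 and 0.78 in the single regions. Alas2 differed less, by 0.31 (SE 0.09) against LAB and 0.13 (SE 0.08) against NAB. Its HAB arrays in the BLA read 25.3, 27.2, 31.5, 23.2 and 35.7, above the LAB arrays at 21.0, 16.6, 22.4, 14.6 and 13.3, whereas the Cg means of HAB and LAB differed by 0.02 (SE 0.15) log2 units.

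**Figure D2:**
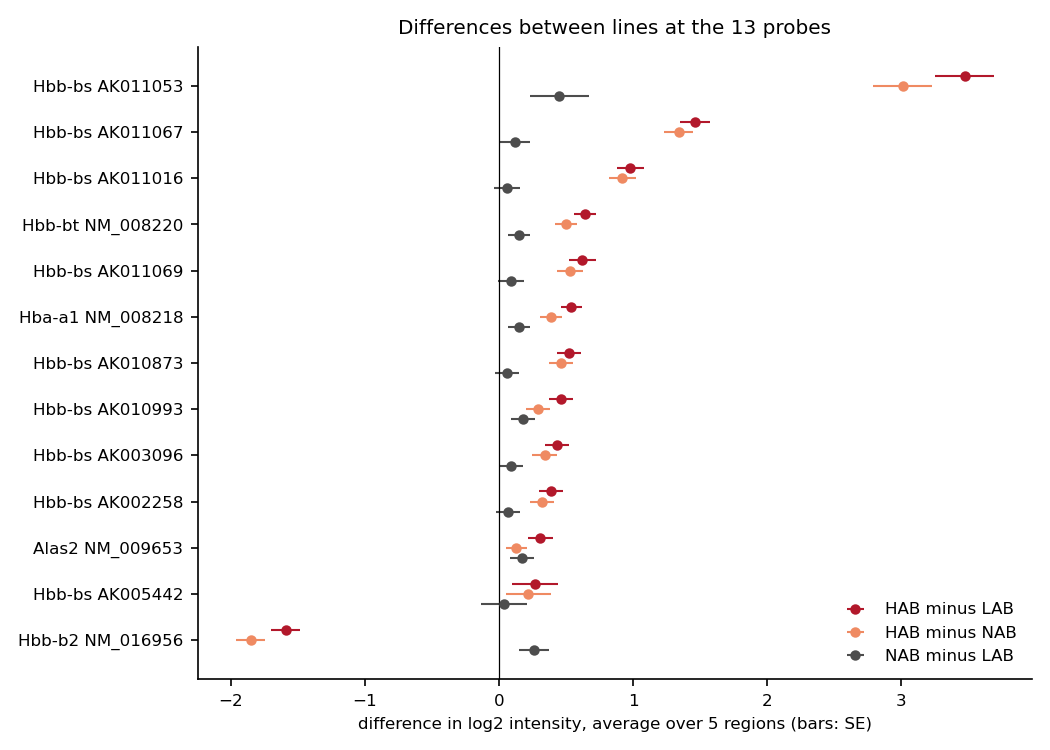
Differences in log2 intensity between lines for the 13 probes, averaged over the 5 regions (points; bars are SE). HAB minus LAB and HAB minus NAB run from -1.85 at Hbb-b2 to 3.47 at AK011053, while NAB minus LAB stays between 0.04 and 0.45.

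Counted by the same fit as all other probes (limma, Benjamini-Hochberg adjusted p under 0.05), 11 of the 13 probes were higher and 1 lower in HAB than in LAB on average over regions, where 7.17% of all 22083 tested probes were called (2.67% higher and 4.5% lower). Against NAB, 10 were higher and 1 lower, with 6.24% of all probes called (3.27% higher and 2.97% lower). Region by region, the probes called between HAB and LAB numbered 9 in the BLA (2.25% of all probes tested there), 5 in the PVN (2.09%), 2 in the DG (0.761%), 5 in the Cg (2.47%) and 4 in the CeA (2.22%). Between HAB and NAB they numbered 4 in the BLA (3.05%), 5 in the PVN (1.71%), 1 in the DG (0.659%), 4 in the Cg (2.13%) and 4 in the CeA (2.06%). Since these contrasts chose the genes, nothing is read from these counts. AK005442 was called against neither line, and Alas2 was called against LAB but not against NAB.

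The contrast of NAB and LAB was not itself used to choose the genes, but it shares its arrays with the contrasts that were. Its counts are thus not independent of the choice. On average over regions, 0 of the 13 probes differed between NAB and LAB (limma, adjusted p 0.11 at Hbb-b2 to 0.91 at AK005442), although 11.9% of all probes did (2.87% higher and 9% lower). The 13 log2 differences had a median of 0.12 and ran from 0.04 (SE 0.17) at AK005442 to 0.45 (SE 0.22) at AK011053, all above 0, against a median of -0.03 over all probes. With 1 mean per mouse in place of single arrays, 0 of the 13 passed as well (adjusted p 0.417 to 0.996, SE 0.08 to 0.29), and the SE of AK011053 between HAB and LAB rose from 0.22 to 0.31. Hbb-b2 was 0.26 (SE 0.11) higher and Hba-a1 0.15 (SE 0.08) higher in NAB. Which mouse entered mattered: AK011053 passed the threshold without LAB mouse 03 (0.65, SE 0.20, adjusted p 0.0267), Hbb-b2 without NAB mouse 15 (0.36, SE 0.11, adjusted p 0.028) or LAB mouse 21 (0.31, SE 0.10, adjusted p 0.0326), and Hbb-bt without NAB mouse 02 (0.25, SE 0.08, adjusted p 0.0165).

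By region, 1 call was made between NAB and LAB. AK011053 in the BLA was 1.57 log2 units (SE 0.39) higher in NAB (limma, adjusted p = 0.0337), where 3.39% of all probes were called. The lines overlapped, as NAB mouse 12 read 25.2 and LAB mouse 03 read 31.3. Without NAB mouse 15, the array with the highest NAB value, the difference was 1.22 (SE 0.30, adjusted p = 0.0346). Leaving out LAB mouse 06, 07, 10 or 14 or NAB mouse 08 or 13 ended the call, with differences of 1.38 to 1.67 and adjusted p between 0.0524 and 0.111. In the Cg, CeA, PVN and DG, 0 of the 13 probes were called, where 2.51%, 2.63%, 1.69% and 0.627% of all probes were. The test of whether NAB minus LAB varied by region passed for 0 of 13 probes (adjusted p 0.448 to 0.945), and for 0.331% of all probes.

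To set beta-globin against alpha-globin in the same RNA, the log2 intensity of Hba-a1 was subtracted from that of each other probe in every array, the region mean was removed, and the arrays of a mouse were averaged. This quantity is a difference of log2 values and shows only whether probes changed unequally. For AK011053, the 6 HAB mice ran from 1.73 to 2.14, the 7 NAB mice from -1.36 to 1.31 and the 8 LAB mice from -1.84 to -0.36. HAB stood above all other mice, and the NAB mouse at 1.31 was mouse 15. AK011067 showed the same order, with HAB mice at 0.54 to 0.80, NAB at -0.58 to 0.35 and LAB at -0.77 to -0.10. Hbb-b2 was reversed, with HAB mice at -1.76 to -1.01, NAB at 0.47 to 1.08 and LAB at 0.45 to 1.27.

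In contrast, AK002258, AK003096, AK010873, AK010993 and AK011069 held nearly the same distance from Hba-a1 in the 3 lines. Their HAB minus LAB difference in this quantity ran from -0.15 to 0.06 and HAB minus NAB from -0.10 to 0.13, and the mice of all lines overlapped. For Hbb-bt, they were 0.09 and 0.05, and for AK005442, which varied most between mice of these probes, -0.48 and -0.23. AK011016 kept 0.48 and 0.56, AK011067 0.98 and 0.99, and AK011053 3.08 and 2.70, whereas Hbb-b2 stood at -2.13 and -2.17. Alas2 lay at -0.28 and -0.26, so it was raised less in HAB than Hba-a1, with HAB mice at -0.33 to -0.02, NAB at -0.01 to 0.20 and LAB at -0.09 to 0.45. Between NAB and LAB, none of the 12 probes passed an exact permutation test over mice (two-sided; lowest p = 0.0494 at AK002258, adjusted p = 0.593 over 12 probes, a difference of -0.09).

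**Figure D3:**
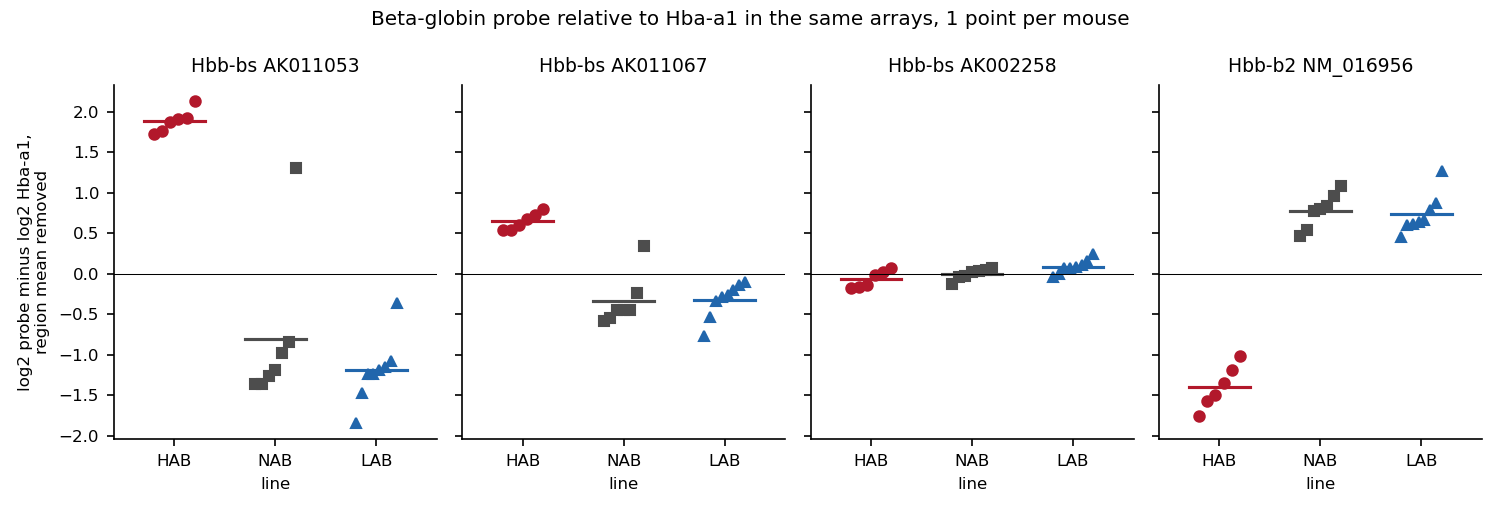
Log2 intensity of 4 beta-globin probes minus that of Hba-a1 in the same arrays, region mean removed and averaged per mouse (6 HAB, 7 NAB and 8 LAB mice; bars are line means). HAB mice stand apart upwards at AK011053 and AK011067 and downwards at Hbb-b2, and overlap with both lines at AK002258; the NAB mouse nearest to HAB is mouse 15.

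The members also varied inside a line, where the choice of genes played no part. After the line mean was removed within a region, the mean of the 11 beta-globin probes followed Hba-a1 from array to array. Over 17 arrays of the Cg, Pearson r was 0.764 and Spearman rho 0.725 (permutation within lines, p = 0.0014 and 0.0031, adjusted p = 0.0035 and 0.0092 over the 15 relations computed). Over 16 arrays of the PVN, r was 0.940 and rho 0.924 (permutation, p = 3.0e-05 and adjusted p = 4.5e-04 for both). Over 17 arrays of the CeA, r was 0.775 and rho 0.767 (permutation, p = 0.0012 and 0.0018, adjusted p = 0.0035 and 0.0067), and over 16 arrays of the BLA 0.685 and 0.594 (permutation, p = 0.011 and 0.029, adjusted p = 0.015 and 0.037). Without the 2 arrays farthest from the median, r was 0.722, 0.910, 0.749 and 0.775. In the DG, with 9 arrays, r was 0.686 and rho 0.567 (exact permutation, p = 0.33 and 0.20, and the same after adjustment). Arrays high at alpha-globin thus tended to be high at beta-globin, and in the PVN the beta-globin deviation ran from -0.50 to 0.59 and that of Hba-a1 from -0.42 to 0.58 log2 units.

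Alas2 took part in this. In the order PVN, CeA, BLA and Cg, its deviations followed those of Hba-a1 with r = 0.863, 0.805, 0.752 and 0.736 (permutation, p = 9.0e-05, 0.0013, 0.0037 and 0.0021, adjusted p = 4.5e-04, 0.0035, 0.0062 and 0.0045). Spearman rho was 0.865, 0.718, 0.712 and 0.699 (permutation, p = 2.5e-04, 0.012, 0.0071 and 0.0045, adjusted p = 0.0012, 0.018, 0.013 and 0.0097). They followed beta-globin with r = 0.834, 0.740, 0.711 and 0.605 (permutation, p = 6.0e-05, 0.0035, 0.0094 and 0.017, adjusted p = 4.5e-04, 0.0062, 0.014 and 0.022), and rho of 0.838, 0.730, 0.688 and 0.588 (permutation, p = 2.3e-04, 0.0037, 0.011 and 0.020, adjusted p = 0.0012, 0.0092, 0.018 and 0.028). All 8 relations of these 4 regions kept an adjusted p under 0.05 without the 2 farthest arrays, at r between 0.546 and 0.860. The regions share mice, so the relations of different regions, here and for beta-globin with Hba-a1, are not independent. Over the 9 DG arrays, the exact permutation test on r gave p = 0.11 (adjusted 0.12) with Hba-a1 (r = 0.713, rho = 0.667) and p = 0.051 (adjusted 0.059) with beta-globin (r = 0.809, rho = 0.800). In bulk tissue, more blood cells per sample and more globin mRNA per cell cannot be told apart.

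**Figure D4:**
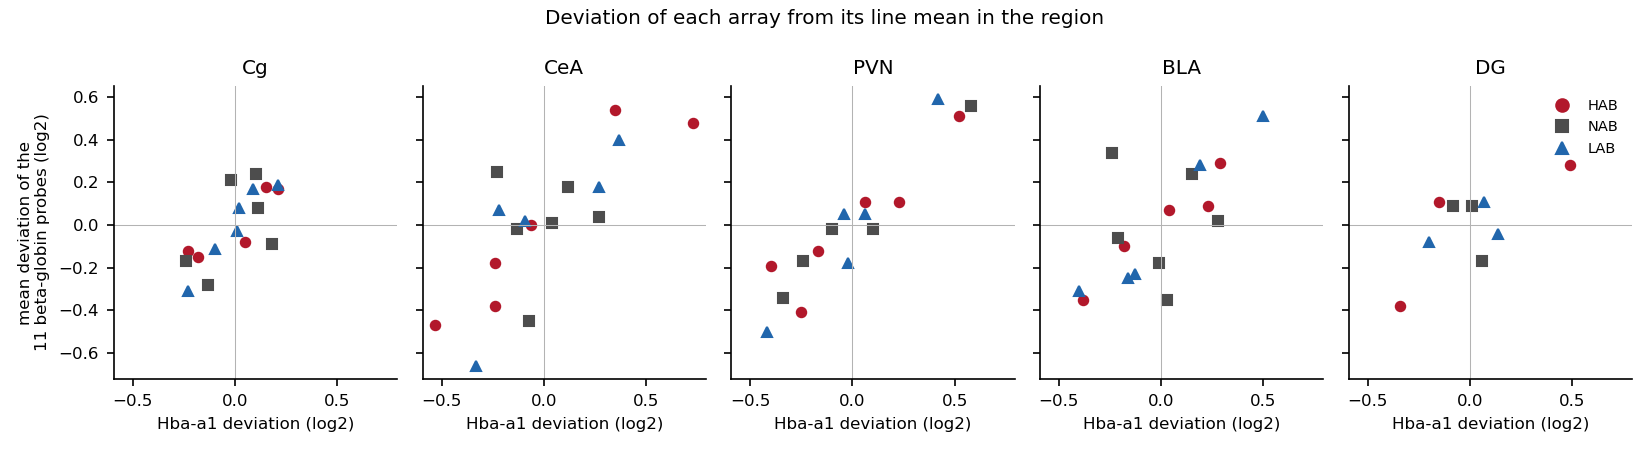
Deviation of each array from the mean of its line in the region (log2 units): the mean of the 11 beta-globin probes against Hba-a1, 1 panel per region, 1 point per array (HAB red circles, NAB grey squares, LAB blue triangles). The points rise together in each panel, with r from 0.685 in the BLA to 0.940 in the PVN.

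The probes differed in how far they shared these deviations. Over the 75 arrays, and as a description only, since all probes are read from the same arrays, deviations of AK002258 correlated with those of AK003096 at 0.970, AK010993 at 0.949, AK010873 at 0.908, AK011069 at 0.888 and Hba-a1 at 0.891. AK011053 stood apart from this set, with 0.366 against Hba-a1 and 0.274 against Alas2, but 0.825 against AK011067 and 0.658 against AK011016. Its deviations and those of Hbb-b2 had r = -0.0998. Hbb-b2 followed Hba-a1 at 0.373 and AK005442 at 0.547, and the dim Hbb-bt followed Hba-a1 at 0.217. The spread inside groups was largest for AK011053 (SD 0.768 log2 units) and AK005442 (0.576), and lay between 0.279 and 0.384 for the other probes.

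Arrays of the same mouse number in different regions resembled each other most at AK011053. Over 114 pairs of such arrays, its deviations had r = 0.579, and those of AK010993 0.495, AK002258 0.473, AK011067 0.466, Hba-a1 0.413 and Alas2 0.408. Hbb-b2 (0.0774), AK005442 (0.0891) and Hbb-bt (0.190) showed less likeness. These values are given with no test, since the pairs share mice.

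Across regions, which the choice of genes did not use, globin and Alas2 intensities were highest in the PVN. Hba-a1 had medians of 535 in the PVN (371 to 953 in 16 arrays), 431 in the Cg (342 to 570 in 17), 402 in the BLA (231 to 634 in 16), 289 in the CeA (207 to 650 in 17) and 259 in the DG (179 to 460 in 9), and neighbours in this order overlapped. Alas2 had medians of 29.6, 25.1, 24.2, 17.7 and 19.7 in the same regions, with the CeA rather than the DG lowest. Against the mean of the other regions, 12 of 13 probes were higher in the PVN (limma with the mouse as random block, adjusted p under 0.05), where 61.7% of all probes were called, 32% higher and 29.7% lower. Hba-a1 was 0.70 log2 units higher (SE 0.08, adjusted p = 6.6e-12), Alas2 0.49 (SE 0.08, adjusted p = 3.66e-07) and AK005442, the probe with the largest difference, 1.31 (SE 0.16, adjusted p = 6.9e-11). AK011053 was called at 0.50 (SE 0.21, adjusted p = 0.0318), but missed the threshold without HAB mouse 01, NAB mouse 02 or 04 or LAB mouse 10 (0.40 to 0.50, adjusted p 0.0503 to 0.111), with quantile normalisation (0.45, adjusted p = 0.0523) and with no filter (0.50, adjusted p = 0.0576). Hbb-bt was the exception, at 0.07 (SE 0.08, adjusted p = 0.466).

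Most probes were lower in the CeA, and part of them lower still in the DG. In the CeA, 12 of 13 probes were lower than in the other regions (58.9% of all probes called, 19.3% higher and 39.7% lower), by 0.20 at Hbb-bt to 0.72 at AK005442, and AK011053 was not called (-0.37, SE 0.20, adjusted p = 0.112). Without the 7 arrays that stood apart from their group at a beta-globin probe, AK011053 in the CeA was called (-0.60, SE 0.16, adjusted p = 1.30e-03), while Hbb-bt was not (-0.18, SE 0.09, adjusted p = 0.0722). In the DG, 7 probes were lower and 2 higher (70.8% of all probes called, 41.1% higher and 29.7% lower). Hba-a1 was lowest, at -0.66 (SE 0.10, adjusted p = 2.5e-08), with AK010993 (-0.50), AK002258 (-0.51), AK003096 (-0.45) and AK011016 (-0.44), whereas Hbb-b2 (0.42, SE 0.13, adjusted p = 2.69e-03) and Hbb-bt (0.33, SE 0.10, adjusted p = 1.95e-03) were higher there. In HAB, Hbb-b2 stayed near background, with a mean of 8.61 in the DG and 8.05 to 9.41 elsewhere. In LAB, Hbb-bt did so, with 8.7 in the DG and 7.69 to 9.04 elsewhere. Their rise in the DG thus came mainly from the other lines. In the Cg, 5 probes were higher (65.8% of all probes called, 22.5% higher and 43.3% lower), by 0.19 to 0.26, and in the BLA only Hbb-b2 was called (-0.25, SE 0.10, adjusted p = 0.0331, with 56.3% of all probes called, 29.8% higher and 26.5% lower). The calls of the Cg numbered 2 to 7 and that of the BLA 0 or 1 when a mouse was left out.

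**Figure D5:**
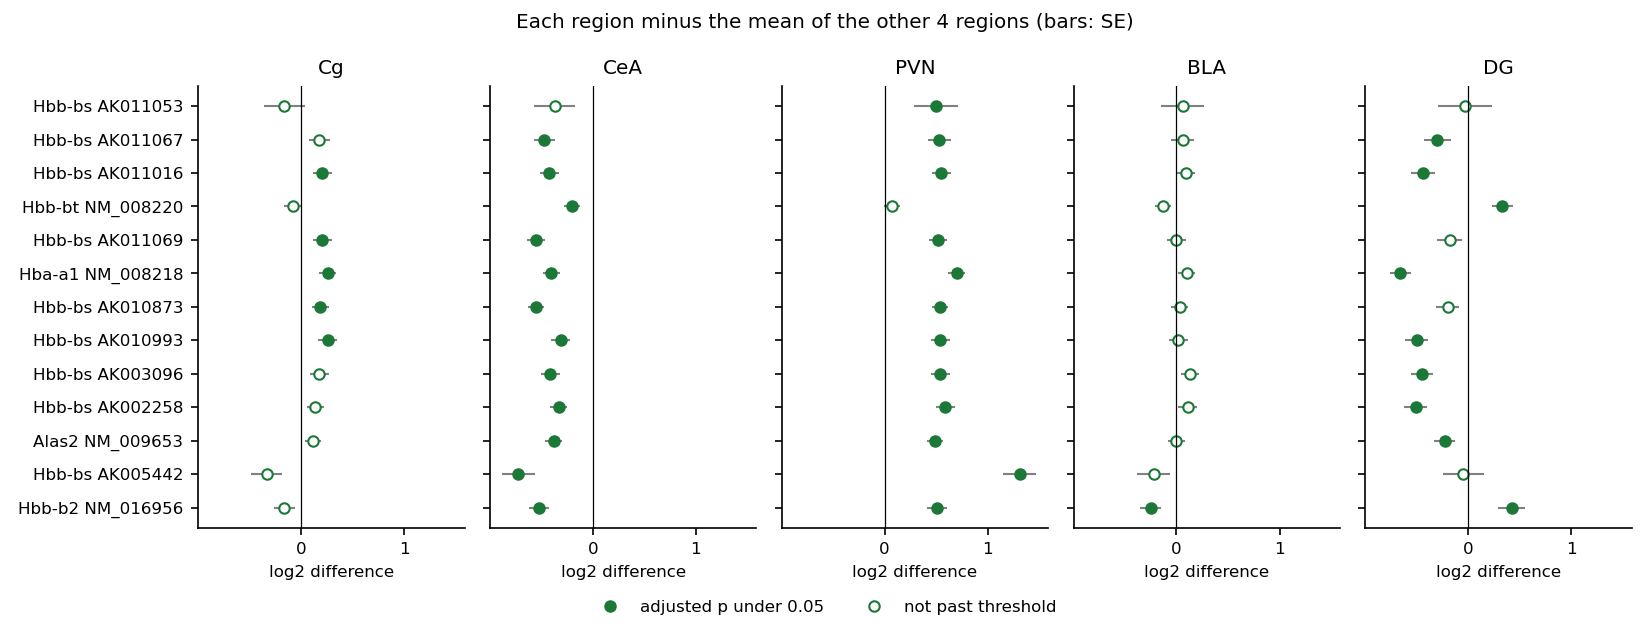
Log2 intensity in each region minus the mean of the other 4 regions for the 13 probes, lines weighted equally (points; bars are SE; filled where the adjusted p is under 0.05). In the PVN 12 probes lie above 0 and are called, in the CeA 12 lie below 0 and are called, and in the DG Hbb-bt and Hbb-b2 move against the other called probes.

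Vessel markers were measured beside these region levels. The summed intensity of the 27 tested probes of 22 brain endothelium genes was 991 to 1890 in the 3 lines of the PVN, 982 to 1410 in the Cg, 1010 to 1280 in the BLA, 775 to 1170 in the CeA and 918 to 1240 in the DG, so that it was high in the PVN and low in the CeA. The order between lines was another, with HAB the highest line in none of the regions. Medians of HAB, NAB and LAB were 1410, 1310 and 1680 for the PVN, 956, 811 and 1070 for the CeA. The Cg gave 1090, 1080 and 1230. HAB was below NAB for the DG (1010, 1030 and 1100) as well as the BLA (1110, 1200 and 1200). Part of the higher LAB sums came from the single Slco1c1 probe. Its medians over all arrays of a line were 15.9 in HAB, 15.5 in NAB and 84.1 in LAB. Between HAB and LAB, 0 endothelium probes were higher and 4 lower in HAB (4.5% of all probes were lower), and between NAB and LAB 0 were higher and 11 lower in NAB (9% of all probes). Against NAB, 3 were higher in HAB, 1 probe each of Emcn (0.23), Ly6c1 (0.22) and Egfl7 (0.14), and 0 lower, where 3.27% of all probes were higher. The largest differences were those of Slco1c1, a thyroid hormone transporter of brain vessels, at -2.52 in HAB and -2.38 in NAB against LAB, Ly6c1 (-0.23 and -0.46), 1 of 2 probes of the adhesion molecule Pecam1 (-0.22, not called, and -0.43) and the angiopoietin receptor Tek (-0.17, not called, and -0.43). Flt1 (-0.24) and 1 of 3 Robo4 probes (-0.22) were the others that were lower in HAB. Abcb1a and Abcg2, the efflux pumps of the blood-brain barrier, did not pass the filter. For pericytes and smooth muscle, 0 of 10 probes were called between HAB and LAB, while between NAB and LAB the pericyte marker Rgs5 was lower in NAB (-0.83, SE 0.14, adjusted p = 1.05e-05) and the potassium channel gene Kcnj8 (0.24) and Vtn (0.15) were higher. Against NAB, Rgs5 was higher in HAB (0.54), and Kcnj8 (-0.33) and Vtn (-0.16) were lower. The part of vessel content in the globin levels was not tested.

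Other red-cell genes gave little signal. Of 33 genes on a list of erythroid markers, 27 had a probe and 14 passed the filter; Gata1, Nfe2, Epb42, Rhag, Hemgn, Trim10, Trim58, Car1, Cldn13, Ermap, Kel, Rhd and Tspo2 did not. Slc4a1, the band 3 anion exchanger of the red cell membrane, lay above background in 8 of 75 arrays and Klf1, the erythroid transcription factor, in 27. Between HAB and LAB, 0 of the 19 tested probes were called (median difference -0.01), where 7.17% of all probes were. Klf1 stood at 0.18, Icam4 at 0.20 and Slc4a1 at -0.01. The summed intensity of the 19 probes had medians in HAB, NAB and LAB of 640, 586 and 611 in the PVN, 601, 562 and 614 in the CeA and 739, 753 and 725 in the BLA, and the lines overlapped in each. Several of the brighter members (Add2, Bnip3l, Ank1, Tfrc) are also expressed in brain cells. Between NAB and LAB, Icam4 was higher (0.26) and Tfrc, the transferrin receptor, lower in NAB (-0.34, SE 0.06, adjusted p = 4.03e-05), as was 1 of 3 Ank1 probes (-0.17). Tfrc was also higher in HAB than in NAB (0.20).

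Heme synthesis outside Alas2 moved in single genes. Of 14 tested probes of 8 genes, Alad, which joins aminolevulinic acid into porphobilinogen, was the only one called between HAB and LAB (0.35), and it was raised in NAB as well (0.31, SE 0.05, adjusted p = 1.61e-05). Alas1, the housekeeping counterpart of Alas2, differed by -0.01 between HAB and LAB. 1 of 2 Abcb10 probes was lower in NAB than in LAB (adjusted p = 2.33e-07) and than in HAB, which exceeded NAB by 1.01, but it lay above background in 21 of 75 arrays, and the second Abcb10 probe differed by -0.02. Urod (-0.13) and 1 of 2 Slc25a38 probes (-0.20) were lower in NAB than in LAB. Among 10 probes for hemoglobin scavenging and heme breakdown, 0 were called between HAB and LAB, and Fth1, the ferritin heavy chain, was lower in NAB than in both HAB (by 0.40) and LAB (by 0.35). Blvra was lower in NAB than in LAB (-0.13). Leukocyte markers gave 2 tested probes of 22, with 0 calls, and platelet markers 4 of 10, with 0 calls between HAB and LAB. Among the platelet markers, Treml1 was lower in HAB than in NAB (-0.34) and Ppbp lower in NAB than in LAB (-0.28). These 2 probes lay above background in 9 and 12 of 75 arrays. Over all tested probes, 7.17% were called between HAB and LAB.

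Several of the remaining globin genes were too dim to be compared with the adult beta-globins. The embryonic genes Hbb-y and Hbb-bh1 had 3 probes, 0 of which passed the filter, with medians of 3.49 to 7.17 in the lines, and Hba-x was likewise dim, with a median of 4.96 in NAB. Hbq1a, an alpha-like globin gene of the alpha cluster, set NAB apart: its 26 NAB arrays ran from 6.55 to 21.5 with a median of 11.8, while 25 HAB arrays had a median of 5.96 (4.13 to 9.69) and 24 LAB arrays 5.86 (4.29 to 7.66). It lay above background in 23 NAB, 1 HAB and 0 LAB arrays. With LAB held at the background level of each array, NAB was at least 1.46-fold higher than LAB on average over regions (limma on the measured values, adjusted p = 3.48e-16), and at least 1.06-fold (CeA) to 1.99-fold (DG) in single regions. The values of HAB and LAB have no order, since nearly all lay at background. The globins of other tissues, neuroglobin (Ngb), cytoglobin (Cygb) and myoglobin (Mb), had 2 tested probes and 0 calls.

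Genes beside the clusters were counted by position. Of 149 genes within 1 Mb of the beta-globin cluster, 86 had a probe and 9 probes passed the filter, all of olfactory receptor genes, a class that also set the background level. Of these, 0 were called in HAB minus LAB, HAB minus NAB or NAB minus LAB. Around the alpha-globin cluster, 19 probes of 15 genes were tested. Of these, 3 were called between HAB and LAB, 3 between HAB and NAB and 7 between NAB and LAB, where 7.17%, 6.24% and 11.9% of all probes were. By direction, 2 were higher and 1 lower in HAB than in LAB, and 1 higher and 2 lower in HAB than in NAB. Between NAB and LAB, 4 were higher and 3 lower in NAB. The called probes included Mpg, a DNA glycosylase, which was higher than in LAB in both HAB (1.84) and NAB (1.75, SE 0.09, limma, adjusted p = 8.53e-25). Mpg lay above background in 4 of 24 LAB arrays, so that the difference depends on values at background. Also called were Hbq1a, 1 of 2 Sh3pxd2b probes (NAB above LAB by 0.65, limma, adjusted p = 3.02e-11, with 0.13 and adjusted p = 0.327 at the other) and Nprl3 (0.38 in HAB and 0.28 in NAB against LAB), whose introns hold the alpha-globin enhancers in mouse and human. Lower than in LAB were Rhbdf1 (-0.28 in HAB and -0.30 in NAB), Efcab9 (-0.29 in NAB) and 1 of 2 Bod1 probes (-0.27 in NAB). Efcab9 lay above background in 17 of 75 arrays and in 0 NAB arrays, so its difference also depends on values at background.

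The genes with the pattern most like the members were ranked among 17269 probes, as a description with no p, because all values come from the same arrays. Over the 15 group means, the mean of the 11 beta-globin probes was followed most closely by Mtmr9 (r = 0.875), Spring1 (0.856), Cyb5r2 (0.833), Foxred2 (0.830) and Ifi30 (0.819), against 0.881 to 0.886 for Hba-a1 and Alas2. Hba-a1 was followed by H2-Q2 (0.910), Lmna (0.897), Mtmr3 (0.892), Spag4 (0.873) and Phlda3 (0.868), and Alas2 by Tbc1d1 (0.902), Hps6 (0.860), Slc22a21 (0.848), Crb2 (0.843) and Chrna4 (0.840). For deviations inside the groups over the 75 arrays, the closest to beta-globin were the histone genes H2ac24 and H2ac19 (both 0.517), H2ac7 (0.509) and H2ac10 (0.505) with Ppp1r3g (0.503), against 0.725 to 0.796 for Hba-a1 and Alas2. H2ac19 (0.552), Crybb1 and Mbl2 (both 0.549), H2ac24 (0.544) and H2ac7 (0.540) were closest to Hba-a1, and Igf2, a growth factor made by the meninges and choroid plexus (0.533), Mbl2 (0.508), Cdk19 (0.494), Akap5 (0.458) and Slc6a13, a meningeal GABA transporter (0.449), to Alas2. Among the genes ranked, Slc22a21 (median intensity 4.6), Mbl2 (7.76) and Cyb5r2 (8.11) lay near or below background, so their r rests on dim values.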

How the data were processed

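Illumina MouseWG-6 arrays were hybridized with biotin-labelled RNA amplified from laser-microdissected tissue. Per the authors' methods, bead signals were summarised in BeadStudio and normalised by QSpline in R (beadarray), and the deposited table holds the resulting intensity of each probe on a linear scale, whose log2 was taken here. Versions are not given in the sources used here. A second table, before normalisation, was not used, because its 156 columns of sample values (78 intensities and 78 detection p-values) match no sample label, and 3 DG arrays carried no values. Probe genes came from the platform annotation (32849 of 46643 probes listed, 32794 with 1 gene name). Within a region, the number of arrays, 1 per mouse, limits precision, and p-values measure the spread between mice. For averages over regions, the limit is the number of mice (6 HAB, 7 NAB and 8 LAB). The joint fit took 1 block correlation for all probes, below the likeness that arrays of a mouse showed at the member probes, so its SEs of line differences averaged over regions may be too small for them; a fit on 1 mean per mouse was added.

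Within a region, testing was limited to probes above the array background in at least as many arrays as the smallest of the 3 line groups held, which left 17974 to 18664 probes per region and 22083 in at least 1. Lines were compared within regions with limma 3.58.1 (R 4.3.3, lmFit and eBayes). Averages over regions, and regions against the mean of the other 4, came from a joint fit of 15 groups. The fit took the mouse as random block (consensus correlation 0.0142). Arrays of 1 mouse number were taken as 1 animal, although the labels give only the number. Same-numbered arrays of different regions had deviations that correlated at 0.0463 on average (114 pairs, 70 positive), against -0.0082 for different mice of a line (628 pairs, 296 positive). Adjusted p-values are Benjamini-Hochberg over all probes tested, with a threshold of 0.05. Permutation tests used 100000 resamples or were exact (Python 3.11.15, scipy 1.17.1, numpy 2.4.6, pandas 2.3.3), and the fits were tested on simulated data. All member probes were reported; of the gene lists, called members with the largest differences (up to 4) were named, and 5 genes per similarity ranking, with a few defining markers added after their values were seen. Alternatives were an offset before the log2, median centring, quantile normalisation, no filter, values raised to background, array weights, no mouse block, no DG, each mouse left out and, chosen after seeing the data, no arrays that stood apart and 1 mean per mouse. The genes, lists and tests were chosen with earlier results of these data known.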

Additional observations from a re-analysis of the deposited data

Results flagged for a closer look

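In 156 groups of 4 or more arrays, 10 values stood far from the rest of their group by Dixon's 95% criterion, on 7 arrays. Chance gives about 1 in 20 groups, the probes share arrays and the groups of 3 in the DG were not checked. At AK011053, LAB mouse 03 read 134 in the CeA (others 12.5 to 21.2), and NAB mouse 15 read 109 in the CeA (others 13.0 to 23.7) and 163 in the Cg (others 17.2 to 29.8). These 3 were high, and the other 7 low. In the Cg, LAB mouse 14 read 324 at AK003096 (others 399 to 437) and 309 at AK010993 (others 390 to 445). In the CeA, LAB mouse 06 read 89.4 at AK010873 (others 138 to 160) and 65.8 at AK011069 (others 111 to 117), and NAB mouse 02 read 109 at AK010873 (others 133 to 148) and 70.0 at AK011069 (others 101 to 113). Hbb-bt in the BLA of NAB mouse 12 was 5.67 (others 8.15 to 9.95), a value under the array background.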

How the results depend on the processing

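Between NAB and LAB, the 1 probe called in the BLA became 0 with no filter and 2 with array weights, the 0 of the DG became 1 with array weights, and the 0 on average over regions became 1 with quantile normalisation (Hbb-b2). Of the 5 probes called in the Cg against the other regions, there were 3 with arrays centred on their median, 9 with quantile normalisation, 2 with no filter, 3 with array weights and 1 without the DG. The 1 probe of the BLA became 0 with no filter, 2 with values raised to the background level, 0 with array weights and 0 without the DG. The relation of beta-globin and Alas2 in the DG passed the threshold with arrays centred on their median (r = 0.823, exact permutation, adjusted p = 0.0427 over 15 relations). With 1 mean per mouse, the calls over all probes between NAB and LAB fell from 2621 to 1613, between HAB and LAB from 1584 to 998 and between HAB and NAB from 1378 to 816 (NAB and LAB: 0 globin or Alas2 probes in both), and AK005442 between HAB and LAB from 0.27 (SE 0.17) to 0.02 (SE 0.22). The cause of these moves was not tested.

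With each of the 21 mice left out in turn, the calls between NAB and LAB numbered 0 to 2 in the BLA and 0 to 1 on average over regions, and those against the other regions 2 to 7 in the Cg (2 or 3 without HAB mouse 01 or 11, NAB mouse 08 or 13 or LAB mouse 06), 0 to 1 in the BLA (0 without HAB mouse 01 or 09 or LAB mouse 06 or 10), 11 to 13 in the CeA, 7 to 10 in the DG and 11 to 12 in the PVN. With no replicate block, the counts stayed at 0 between NAB and LAB on average and at 5, 12, 12, 1 and 9 in the Cg, CeA, PVN, BLA and DG. The 12 probes higher on average in HAB than in each other line numbered 12 in every alternative that left out a mouse. Since these contrasts chose the genes, nothing is read from this count. It includes AK005442 (0.27, SE 0.17, against LAB), which was called against neither line. No called result changed direction in any alternative run. Hbb-b2 in HAB and Hbb-bt in LAB and NAB lie near background, which limits how large their fold changes can be measured.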
